A study of Rattus norvegicus with 36 samples.

Results

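The genes described here encode the nuclear part of the mitochondrial respiratory chain and the ATP synthase. A gene was taken when the single platform symbol of a probe set began with Nduf, Sdha to Sdhd, Uqcr, Cox4 to Cox8 or Atp5, or was Cyc1 or Cycs, with Ndufa4l2 left out. The rule found 97 probe sets of 55 genes among 3903 genes tested, and each gene is represented by its brightest probe set. All 55 had a tested probe set, and 95 of the 97 probe sets passed the filter on dim signals. By name 26 genes belong to complex I, 2 to complex II, 4 to complex III, 13 to complex IV and 10 to complex V. The names also brought in the assembly factors Ndufaf3 and Sdhaf2, the supercomplex factor Cox7a2l and a pseudogene of Cox6c. The array gave no single-symbol probe set for Cycs, and none of the mitochondrially encoded subunits was measured here.

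Complexes I to IV pass electrons from NADH and succinate to oxygen and pump protons across the inner mitochondrial membrane, and complex V uses the proton gradient to make ATP. The nuclear subunits are translated in the cytosol and imported, so their mRNAs can be found on cytosolic polysomes, the strings of ribosomes on an mRNA in translation. In skeletal muscle these enzymes supply the ATP of sustained contraction, and their mRNAs are among the abundant transcripts of oxidative fibres. The roles given below are those known from the bovine and human enzymes.

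The series followed rat skeletal muscle, labelled "ta", after resisted contractions, on 36 arrays with 1 colour. The groups were polysomal RNA at 6 h (samples 1 to 4), total RNA at 6 h (samples 1 to 4), polysomal RNA at 1 h (samples 1 and 2), total RNA at 1 h (samples 1 and 2), a polysomal control (samples 1 to 4) and a control titled 1hr polysome (samples 1 and 2). Each sample number has 2 arrays, and their mean is the value given. The labels do not say whether those are repeats of 1 RNA or separate muscles. The title of the 2-sample control names polysomes and its description does not, so its RNA fraction is not settled. Both control descriptions give 1 h and name no contractions, and neither strain, age nor sex was given in the labels used here. The labels do not say that samples are separate animals, so p-values measure only how far these samples spread, and that spread may be technical. There was no control of total RNA with matching labels.

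Levels are given as log2 of the deposited signal with a floor at 7.02, and differences as log2 differences of group means. A gene was called at an adjusted p under 0.05 from limma. Every array had been scaled to nearly the same trimmed mean, so a difference between fractions is relative to the other RNA on the array, and levels of different probe sets were not compared. In this bulk RNA fewer cells of a type and less RNA per cell cannot be told apart.

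Sample 3 of total RNA at 6 h stood apart. The ratio of the 3′ to the 5′ probe sets of actin, a sign of RNA integrity, was 9.01 and 11.5 on its 2 arrays, against 1.01 to 1.58 for the other 3 samples of that group. In polysomal RNA at 6 h the ratio was 2.54 to 4.48. The arrays named 1A and 2A of polysomal RNA at 6 h and of the polysomal control also stood apart. Of 262 bright probe sets, 6 to 7 lay below the floor on each of those arrays and at most 4 on any other array. On arrays 1A and 2A the GAPDH ratio was 0.416 and 0.0702 in polysomal RNA at 6 h, and 0.0742 and 0.0374 in the polysomal control. The count of calls and the named values that these samples move most are given with and without them.

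Promoter sequences of 46 of the 55 genes were found in the RefSeq table of the rat assembly GRCr8. They are shown for 4 genes whose fraction values are described below, 250 bases before the start of the gene, with matches in capitals. Ndufc1 and Ndufa5 were called higher in polysomal RNA at 6 h, whereas Sdha and the muscle isoform gene Cox6a2 lay on the other side of 0. The Ndufc1 window is chr2:137601736-137601985 on the minus strand and held none of the motifs searched. The Ndufa5 window is chr4:53971236-53971485 on the minus strand, with an E-box and an NRF1 motif. The Sdha window is chr1:30764303-30764552 on the plus strand, with 2 NRF1 motifs. The Cox6a2 window is chr1:192219717-192219966 on the minus strand, with an E-box and a MEF2 motif.
Ndufc1: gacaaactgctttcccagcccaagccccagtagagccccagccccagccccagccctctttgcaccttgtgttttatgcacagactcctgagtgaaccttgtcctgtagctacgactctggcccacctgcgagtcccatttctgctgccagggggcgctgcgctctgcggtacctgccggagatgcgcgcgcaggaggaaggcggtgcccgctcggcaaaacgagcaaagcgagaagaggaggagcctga
Ndufa5: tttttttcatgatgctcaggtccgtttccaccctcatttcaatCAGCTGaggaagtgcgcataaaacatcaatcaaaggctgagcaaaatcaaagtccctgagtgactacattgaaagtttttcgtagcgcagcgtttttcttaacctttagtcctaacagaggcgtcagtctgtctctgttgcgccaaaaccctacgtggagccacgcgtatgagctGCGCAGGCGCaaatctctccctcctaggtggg
Sdha: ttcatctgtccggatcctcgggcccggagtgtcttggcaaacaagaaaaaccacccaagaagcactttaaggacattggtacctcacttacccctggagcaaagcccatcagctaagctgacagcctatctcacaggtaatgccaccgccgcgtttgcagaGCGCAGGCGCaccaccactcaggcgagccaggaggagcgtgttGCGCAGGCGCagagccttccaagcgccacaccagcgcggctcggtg
Cox6a2: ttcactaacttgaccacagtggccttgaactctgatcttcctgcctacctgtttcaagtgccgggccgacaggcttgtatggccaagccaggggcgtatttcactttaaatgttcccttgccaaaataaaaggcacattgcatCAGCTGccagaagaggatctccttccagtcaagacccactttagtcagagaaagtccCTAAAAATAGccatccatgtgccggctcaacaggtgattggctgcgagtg

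The motifs were searched on both strands in windows of 250 bases, and matches of different motifs could overlap. The NRF1 motif, GCGCA and GCGC with any base between them, named for a regulator of respiratory genes, was present in 5 members, or 10.9%, against 6.50% of the 3860 array genes with a promoter and 5.45% of all 19005 promoters. The GABP motif CCGGAAG was present in 9 members, or 19.6%, against 10.6% of array genes and 9.52% of all promoters. The E-box CAGCTG was present in 8 members, or 17.4%, against 13.2% and 11.9%, and the MEF2 motif, CTA and TAG with any 4 bases between them, in 2 members, or 4.35%, against 2.69% and 3.16%. The YY1 motif AAGATGGCG occurred in 1 member, or 2.17%, against 0.751% of array genes and 0.784% of all promoters. The ERR motif TCAAGGTCA occurred in none, against 0.13% and 0.305%. Both motifs are too rare for counts among 46 windows to be informative. Median GC content of the windows was 55.6% for members, 59.2% for array genes and 54.8% for all promoters. Of the 11 genes called higher at 6 h that had a promoter, 1 held the NRF1 motif, 2 the E-box and none the GABP motif. A match of letters is a description and not a binding site.

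The first comparison asked which respiratory chain mRNAs were more abundant in polysomal than in total RNA 6 h after the contractions. The labels do not say that both fractions came from the same muscles, and the fit did not pair them. Of the 55 members 14 were called higher in polysomal RNA and none lower. Over all 3903 genes 4.36% were called higher and 5.02% lower. The 14 were 9 accessory subunits of complex I with the assembly factor Ndufaf3, the complex IV subunits Cox6c, Cox6a1 and Cox7b, and the ATP synthase inhibitor Atp5if1, with folds between 1.63 and 2.63. The median difference of the members was 0.39, against -0.14 over all genes, 0.53 apart. Of the members 37 lay above 0 and 45 above the median of all genes. At an unadjusted p under 0.05, 20 members were higher and 1 was lower, against 8.99% and 17.2% of all genes.

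In 15 members every polysomal sample at 6 h lay above every total sample, against 5.12% of all genes, and in none did every polysomal sample lie below, against 7.43%. Of the 14 called genes 11 had samples that did not overlap. The 4 other genes without overlap were Atp5pd, Atp5pf, Cox5a and Ndufa4, which did not pass the test. Under other scalings no member was called lower. Quantile normalization called 18 members higher with 209 genes higher and 101 lower over all genes, and 75th percentile scaling called 17 members with 218 higher and 89 lower, beside 170 higher and 196 lower as deposited.

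**Figure D1:**
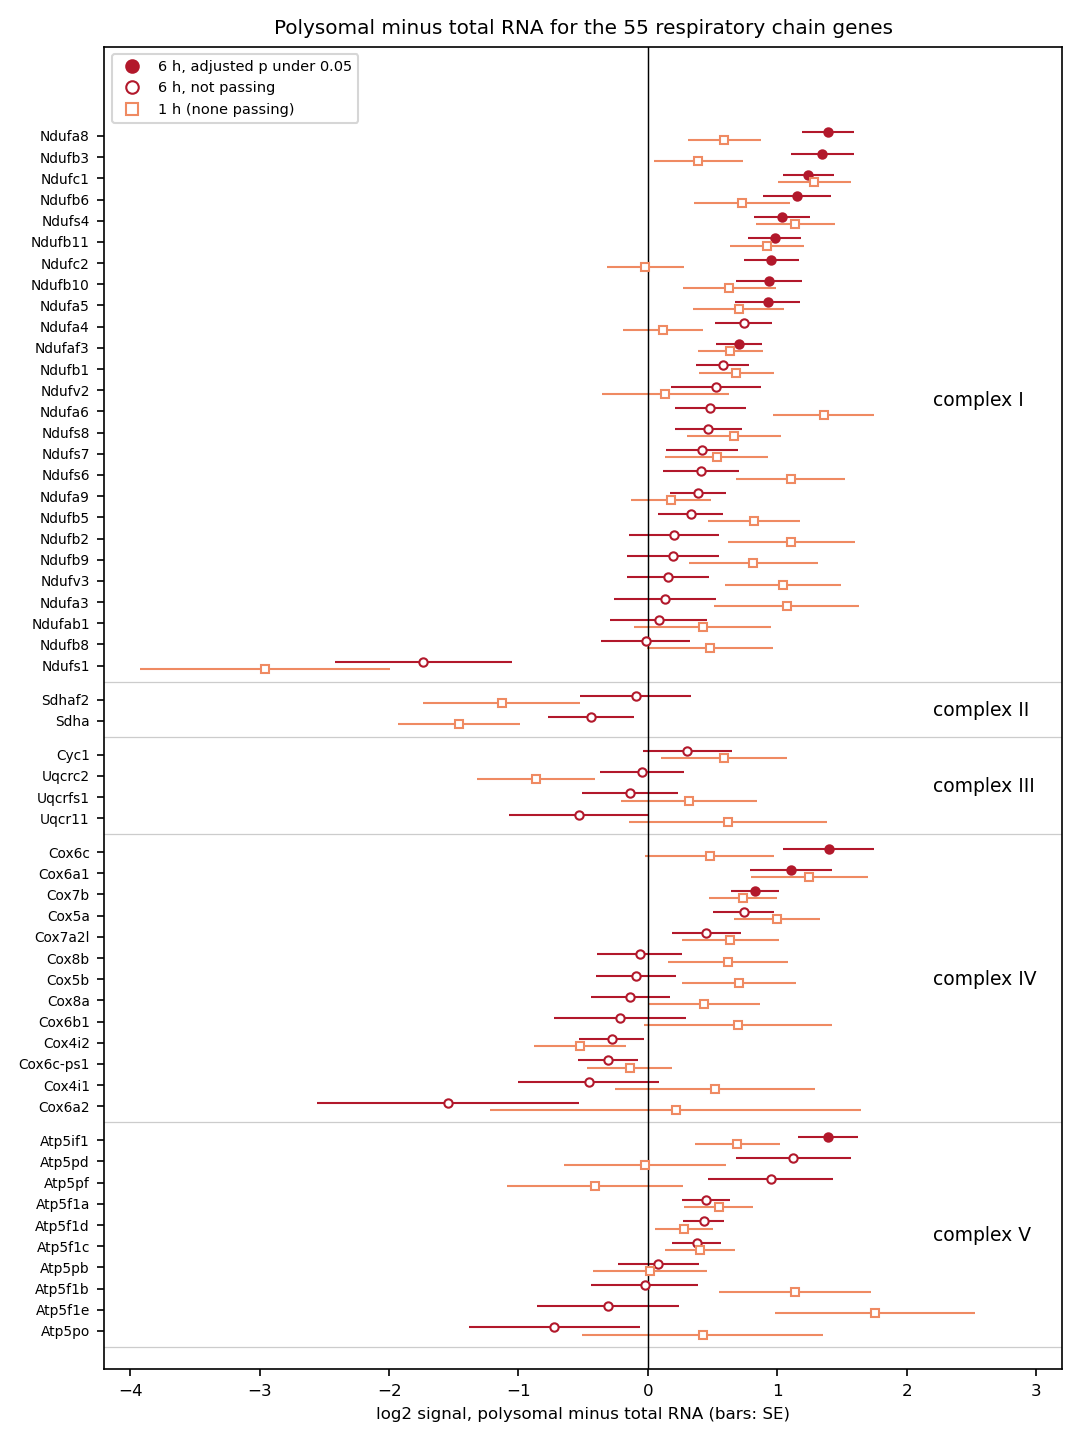
Polysomal minus total RNA for each of the 55 genes, in log2 units on the horizontal axis, grouped by complex; filled circles passed at 6 h, open circles did not, squares are the 1 h differences and bars are standard errors. The 14 filled circles lie between 0.71 and 1.40, and 10 of them belong to complex I.

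Complex I, the NADH dehydrogenase that feeds electrons into the chain, held 10 of the 14 calls among its 26 genes, and 24 of the 26 lay above 0. The accessory subunits, which surround the catalytic core, accounted for 9 calls among 21 genes with a median difference of 0.58. Ndufa4, which was not called, is counted among the 21 by its name. None of the 4 core subunits, which carry the cofactors, was called, and their median was 0.44. These groups by role were made after the values were seen and were not tested against each other.

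Ndufa8, an accessory subunit on the intermembrane space side, had log2 signals of 13.97, 13.67, 13.92 and 13.48 in polysomal RNA at 6 h, against 12.75, 12.60, 11.78 and 12.33 in total RNA. All polysomal samples were higher than all total samples. The difference was 1.39 (SE 0.20, adjusted p = 0.00203), a fold of 2.62, and it was the one call present in all 19 alternative fits. Ndufb3, a membrane arm subunit, had 14.32, 13.74, 14.00 and 13.89 in polysomal RNA, against 13.15, 12.84, 11.70 and 12.88 in total RNA. The groups did not overlap, and sample 3 of total RNA was the lowest by more than 1 log2 unit. Its difference was 1.35 (SE 0.24, adjusted p = 0.00572), and 1.03 without that sample.

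Ndufc1, a small membrane arm subunit whose promoter is shown above, had 14.28, 14.04, 14.42 and 14.20 in polysomal RNA at 6 h, against 13.11, 12.61, 12.97 and 13.29 in total RNA. The samples of each group lay close together and the groups were apart. The difference was 1.24 (SE 0.20, adjusted p = 0.00396). Ndufb11, also of the membrane arm, had 13.84, 13.93, 14.22 and 13.86 in polysomal RNA, against 12.84, 12.78, 13.44 and 12.87 in total RNA. Sample 3 was the highest of the total samples and still lay below all polysomal ones. The difference was 0.98 (SE 0.20, adjusted p = 0.0107). Ndufc2, another membrane arm subunit, had 13.22, 13.34, 13.66 and 12.92 in polysomal RNA, against 12.67, 12.54, 11.83 and 12.28 in total RNA, a difference of 0.95 (SE 0.21, adjusted p = 0.0151) without overlap.

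Ndufs4, a peripheral arm subunit whose loss causes severe complex I deficiency in human patients and mice, had 13.71, 13.82, 13.69 and 13.58 in polysomal RNA at 6 h, against 12.13, 12.30, 13.16 and 13.05 in total RNA. Total samples 1 and 2 were lower than samples 3 and 4, and all 4 lay below the polysomal samples. The difference was 1.04 (SE 0.22, adjusted p = 0.0112). Ndufa5, a peripheral arm subunit, had 13.87, 13.64, 14.03 and 13.92 in polysomal RNA, against 13.04, 13.15, 12.35 and 13.22 in total RNA. These groups did not overlap either, and the difference was 0.92 (SE 0.25, adjusted p = 0.0346).

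Ndufb6 and Ndufb10, both membrane arm subunits, were called although their samples overlapped. Ndufb6 had 13.99, 13.93, 14.35 and 13.38 in polysomal RNA at 6 h, against 12.84, 12.54, 12.19 and 13.47 in total RNA, a difference of 1.15 (SE 0.26, adjusted p = 0.0172). Ndufb10 had 13.75, 13.02, 13.76 and 13.32 in polysomal RNA, against 12.05, 12.00, 12.77 and 13.27 in total RNA, a difference of 0.94 (SE 0.25, adjusted p = 0.0346). In both genes sample 4 of total RNA reached the lowest polysomal samples. Ndufaf3, an assembly factor that is not part of the finished enzyme, had 11.07, 11.55, 11.57 and 11.08 in polysomal RNA, against 10.67, 10.15, 10.83 and 10.79 in total RNA. Its difference of 0.71 (SE 0.18, adjusted p = 0.0264) was the smallest of the calls.

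Among complex I genes that did not pass, Ndufa4 had a difference of 0.74 (SE 0.22, adjusted p = 0.0505). It carries a complex I name and has since been assigned to complex IV. Ndufb8, a membrane arm subunit, lay at -0.02. The iron-sulfur core subunit Ndufs1 had the lowest difference of all members, -1.74 (SE 0.68, adjusted p = 0.121). Its log2 signals were 7.29, 7.02, 7.02 and 7.02 in polysomal RNA at 6 h, against 10.66, 10.60, 7.02 and 7.02 in total RNA. Total samples 1 and 2 were far above the floor, and samples 3 and 4 were at it. Without sample 3 of total RNA Ndufs1 was called lower at -2.34 (adjusted p = 0.0413), and without sample 4 it was also called lower (adjusted p = 0.0255).

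**Figure D2:**
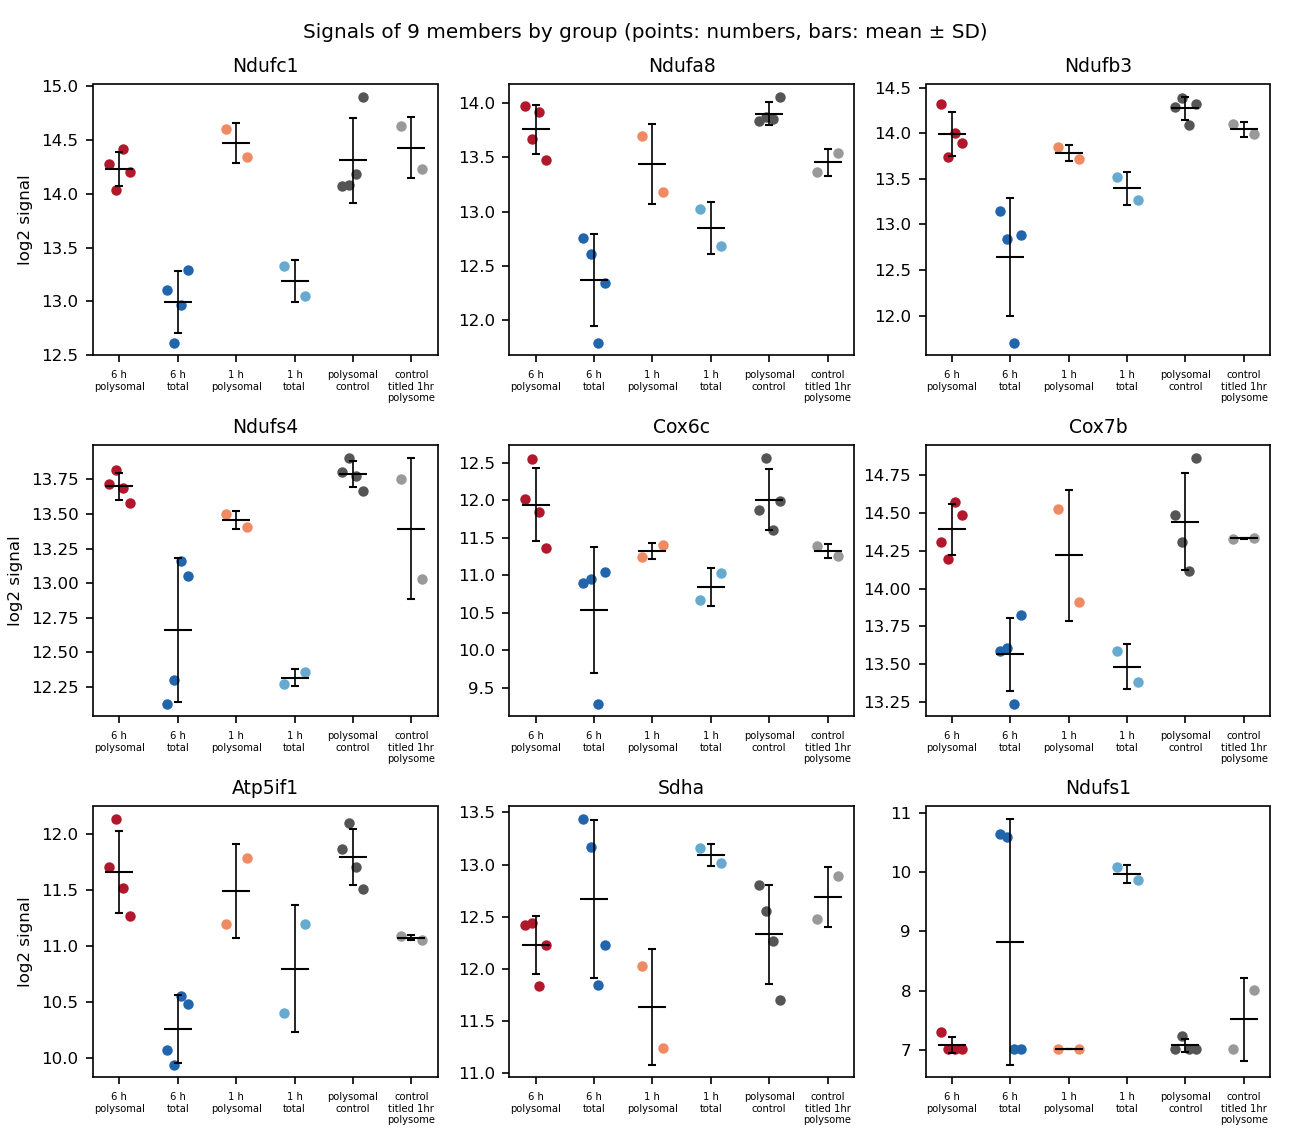
Log2 signals of 9 genes by group, with 1 point for each sample and bars for the mean and SD. The polysomal samples at 6 h lie above the total samples at 6 h for Ndufc1, Ndufa8, Ndufb3, Ndufs4, Cox6c, Cox7b and Atp5if1, whereas Sdha and Ndufs1 are spread widely in total RNA at 6 h.

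Complex II, the succinate dehydrogenase that also works in the citrate cycle, had 2 genes on the array and neither was called. Sdha, the flavoprotein subunit, had 12.42, 12.43, 11.83 and 12.22 in polysomal RNA at 6 h, against 13.44, 13.16, 11.84 and 12.23 in total RNA. Total samples 1 and 2 were above all polysomal samples, and samples 3 and 4 lay among them. The difference was -0.44 (SE 0.33, adjusted p = 0.41). Sdhaf2, the factor that attaches the flavin to Sdha, had 10.05, 11.06, 10.55 and 10.04 in polysomal RNA, against 11.80, 11.27, 9.58 and 9.44 in total RNA, a difference of -0.10. The total samples split by number as for Sdha.

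Complex III, the cytochrome bc1 complex, had 4 genes and no call. Cyc1, the cytochrome c1 subunit, lay at 0.30, the core protein Uqcrc2 at -0.04, the Rieske iron-sulfur protein Uqcrfs1 at -0.14 and the small subunit Uqcr11 at -0.53 (SE 0.54). These differences were within the spread between samples. The 3 probe sets of Uqcrfs1 ran from -0.14 to 1.07, with 2 above 0 and none called, so its direction depended on the probe set.

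Complex IV, cytochrome c oxidase, had 3 calls among 13 genes, and 5 of the 13 lay above 0 by their brightest probe sets. Cox6c, an accessory subunit, had log2 signals of 12.01, 12.55, 11.84 and 11.37 in polysomal RNA at 6 h, against 10.89, 10.95, 9.29 and 11.04 in total RNA. The groups did not overlap, and total sample 3 was far below the others. The difference was 1.40 (SE 0.35, adjusted p = 0.026), and 0.98 without that sample. Cox7b, another accessory subunit, had 14.31, 14.20, 14.57 and 14.49 in polysomal RNA, against 13.59, 13.61, 13.24 and 13.82 in total RNA, a difference of 0.83 (SE 0.19, adjusted p = 0.0158) without overlap. Cox6c has a pseudogene on the array whose signals lay near the floor, and what near-identical copies add to a probe set cannot be told apart.

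Cytochrome oxidase has tissue isoforms, and the array held both forms of 3 subunits. Cox6a1, the form found in most tissues, had 13.44, 13.59, 14.04 and 13.27 in polysomal RNA at 6 h, against 11.87, 11.64, 13.39 and 13.02 in total RNA, a difference of 1.11 (SE 0.32, adjusted p = 0.044). The groups overlapped, since total sample 3 was above polysomal sample 4, and without total sample 3 the difference was 1.41 (adjusted p = 0.011). Cox6a2, the heart and skeletal muscle form, had 13.71, 10.11, 14.20 and 15.03 in polysomal RNA, against 14.33, 14.68, 15.41 and 14.80 in total RNA. Its difference was -1.54 (SE 1.01, adjusted p = 0.345), and sample 2 of polysomal RNA was more than 3 log2 units below the others. The difference between both isoforms was not tested.

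Cox4i1, the common form of subunit 4, had 13.85, 12.59, 13.87 and 14.87 in polysomal RNA at 6 h, against 13.95, 13.96, 14.55 and 14.54 in total RNA, a difference of -0.46 (SE 0.55). Cox4i2, the form known from lung, had 10.61, 10.18, 10.39 and 10.81 in polysomal RNA, against 10.27, 10.53, 11.58 and 10.72 in total RNA, a difference of -0.28. Neither passed, and the groups overlapped in both genes. The common Cox8a and the muscle form Cox8b lay at -0.14 and -0.06, also with overlap. The electron-carrying core of cytochrome oxidase is mitochondrially encoded and was not measured.

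Single arrays were low for both Cox6a2 and Cox4i1. The Cox6a2 probe set had a deposited signal of 0.2 on array 2A of polysomal RNA at 6 h, beside 9388 on array 2bA of the same sample. On array 2A of the polysomal control it was also 0.2, beside 13003 on array 2bA. One of the other probe sets of Cox4i1 had 0.2 and 0.1 on arrays 1A and 2A of polysomal RNA at 6 h, and 0.3 and 0.2 on the same arrays of the polysomal control. On arrays 1bA and 2bA it had 18797 and 9612 in polysomal RNA at 6 h, and 11497 and 3041 in the polysomal control. Without arrays 1A and 2A of the 6 h sets the Cox6a2 difference was -0.39 and that of Cox4i1 -0.04, and 15 members were called higher. Low readings were not confined to those arrays. The other Cox6a2 probe set read 968.3, 2241.5 and 876.7 on arrays 2bA, 3aA and 3bA of polysomal RNA at 6 h. On arrays 1bA, 4aA and 4bA of that group it read 20796.7, 17046 and 38963.1. In the polysomal control it read 928, 731.2 and 1369.4 on arrays 2bA, 3aA and 3bA.

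**Figure D3:**
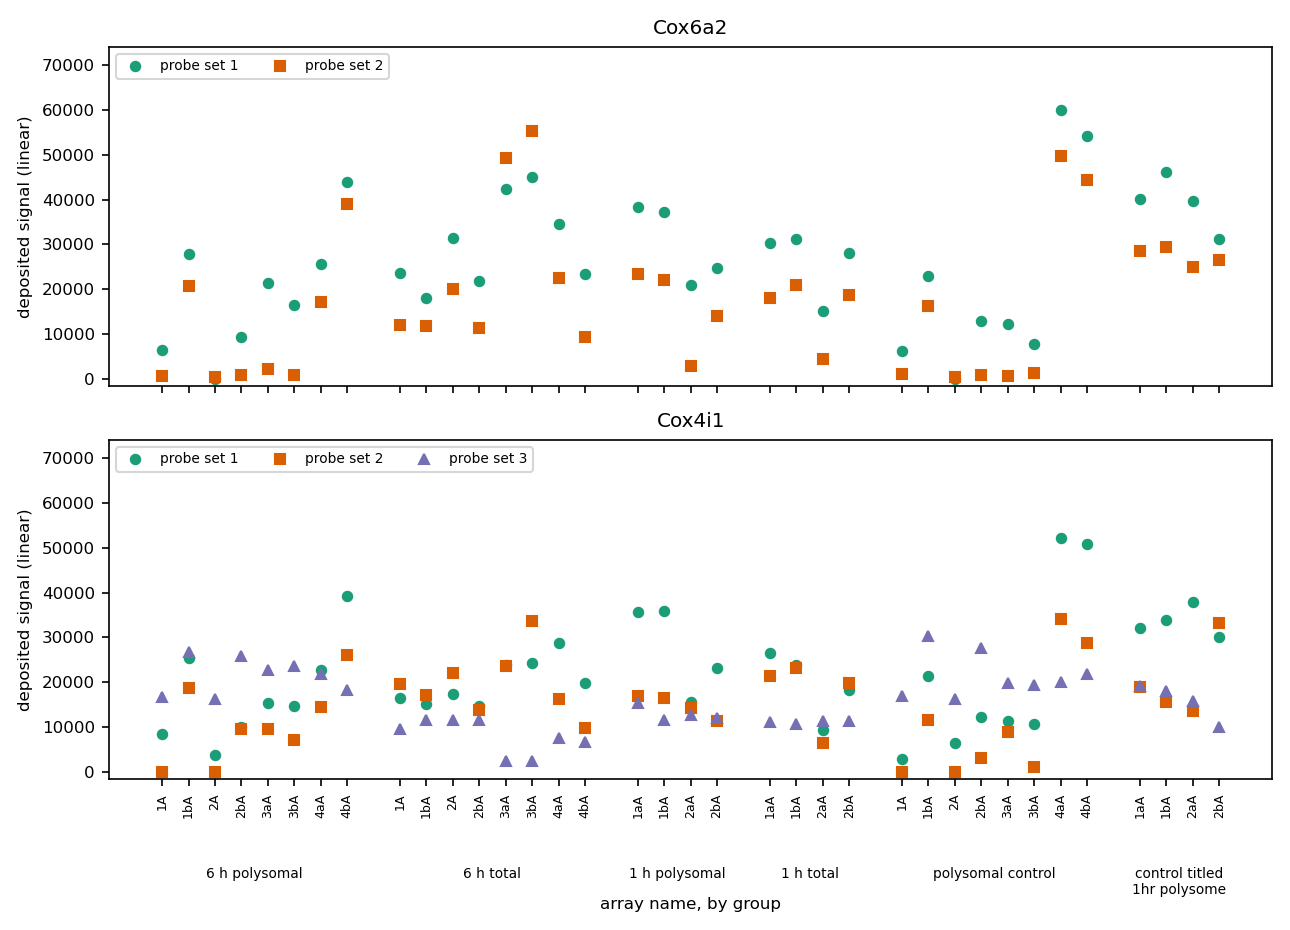
Deposited signals (linear scale) of the probe sets of Cox6a2 and Cox4i1 on each of the 36 arrays, by group and array name, with 1 symbol for each probe set. The Cox6a2 probe set drawn as circles reads 0.2 on both polysomal arrays named 2A, and the Cox4i1 probe set drawn as squares is at or under 0.3 on the 4 polysomal arrays named 1A and 2A.

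Complex V, the ATP synthase, had 1 call among 10 genes, and 7 lay above 0. The call was Atp5if1, the inhibitor that stops the enzyme from running backwards, with 11.70, 12.13, 11.51 and 11.27 in polysomal RNA at 6 h, against 10.07, 9.94, 10.55 and 10.48 in total RNA. The groups did not overlap, and the difference was 1.39 (SE 0.23, adjusted p = 0.00403). None of the 5 subunits of the catalytic F1 head was called, with a median of 0.38, and none of the 4 genes of the peripheral stalk, with a median of 0.51. Atp5pd, a subunit of the peripheral stalk, had 14.08, 14.18, 13.83 and 13.73 in polysomal RNA, against 13.56, 13.62, 10.87 and 13.28 in total RNA. The groups did not overlap, and the difference of 1.12 (SE 0.44, adjusted p = 0.121) was 0.47 (adjusted p = 0.0797) without total sample 3. At the lower end were Atp5po, also of the stalk, at -0.72 (SE 0.66) and the small head subunit Atp5f1e at -0.31. Neither passed. Without total sample 3 Atp5po lay at -0.29, without arrays 1A and 2A at -0.15, and its other probe set read 0.92, so its direction is not settled.

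Leaving out single samples changed several of the 14 calls. Atp5if1, Ndufa8, Ndufb11, Ndufb3, Ndufc1, Ndufc2 and Ndufs4 were called in each of the 8 fits that left out 1 of the 6 h samples. Those 7 were the calls that remained without polysomal sample 3, the fit with the lowest count. The calls of Cox7b and Ndufb6 were lost without that sample alone. Those of Cox6c and Ndufaf3 were also lost without polysomal sample 2, and further without polysomal sample 1 for Cox6c and total sample 2 for Ndufaf3. Ndufb10 was lost without total samples 1 or 2 or polysomal samples 1, 3 or 4. Cox6a1 was lost without total samples 1 or 2 or any polysomal sample, and Ndufa5 without total samples 1 or 3 or any polysomal sample. Without total sample 3, the sample with the high actin ratio, 14 members were called higher and 1 lower, and Cox7a2l was among the calls at 0.73 (adjusted p = 0.0488).

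Genes that did not pass moved more with these samples. Without total sample 3 the differences of Atp5f1e at 0.04, Cox8a at 0.09, Cox8b at 0.26, Cox6b1 at 0.17 and Ndufb8 at 0.09 lay on the other side of 0. Those of Sdha at -0.72, Sdhaf2 at -0.41, Uqcrc2 at -0.42, Uqcr11 at -0.35 and Cyc1 at 0.56 kept their side, and Cox4i2 lay at -0.01. Without arrays 1A and 2A Uqcr11 lay at -0.07, Uqcrfs1 at 0.24, Uqcrc2 at 0.10 and Cox6b1 at 0.11. None of these genes passed in either fit.

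The samples of total RNA at 6 h fell into 2 sets by number. Relative to each gene's mean over all 18 samples, the complex I genes had median deviations of -0.68 and -0.74 in total samples 1 and 2 at 6 h, and of -0.05 and -0.10 in samples 3 and 4. In polysomal samples 1 to 4 at 6 h the medians were 0.25, 0.03, 0.34 and 0.17. The 2 complex II genes, the subunit Sdha and the assembly factor Sdhaf2, ran the other way. Their median was 1.10 and 0.69 in total samples 1 and 2 and -0.81 and -0.69 in samples 3 and 4. Over all genes the median deviation was 0.26 in total sample 3 and between -0.11 and 0.02 in the other 17 samples.

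The array names at 6 h also differ between samples 1 and 2 and samples 3 and 4, so both sets were fitted apart, a choice made after the values were seen. Samples 1 and 2 alone called 19 members higher and 1 lower, which was Ndufs1 at -3.47 (adjusted p = 0.000952), with 273 genes higher and 331 lower over the array. Samples 3 and 4 alone called 1 member, Ndufa8 at 1.64 (adjusted p = 0.0414), with 21 genes higher and 21 lower over the array. The median member difference by equal number was 0.69, 0.31, 0.22 and 0.31 for samples 1 to 4, with 46, 38, 29 and 42 of the 55 genes above 0. Equal numbers were not taken as pairs of the fractions at 6 h, although pairing is not excluded, so these values are only a description.

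**Figure D4:**
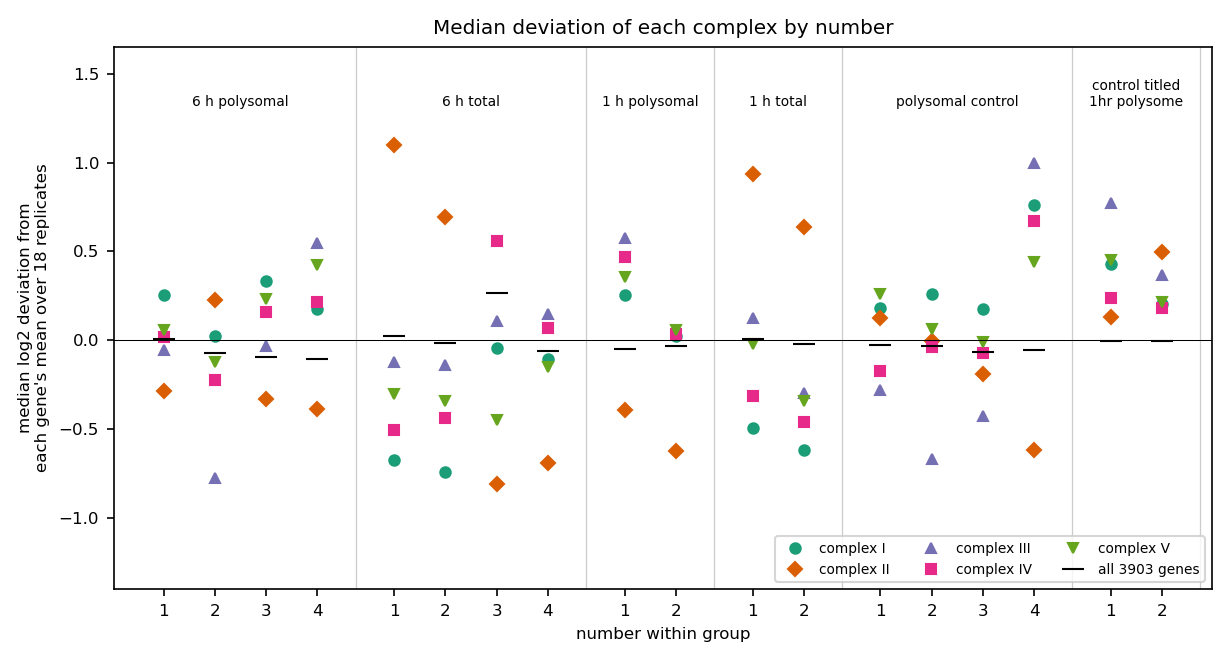
Median log2 deviation of the genes of each complex from their means over 18 samples (vertical axis), for each sample of the 6 groups (horizontal axis), with short lines for all 3903 genes. Complex I is lowest in total samples 1 and 2 at 6 h and in both total samples at 1 h. Complex II, here only Sdha and Sdhaf2, is highest in those same 4 samples.

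At 1 h the same comparison of fractions had 2 samples a group. None of the 55 members was called, against 0.179% of genes called higher and 0.154% lower. The median member difference was 0.59, against -0.04 over all genes, and 46 members lay above 0. At an unadjusted p under 0.05, 14 members were higher and 2 were lower, against 7.28% and 8.28% of all genes. The members' median relative to all genes was 0.63, and it was 0.46 to 0.78 with 1 sample left out and 0.30 with quantile normalization. The actin ratio was 2.0 to 4.28 on the polysomal arrays at 1 h, against 1.22 to 1.62 on the total arrays, and its part was not tested. In 36 members both polysomal samples lay above both total samples, against 20.8% of all genes, and in 4 both lay below, against 27.9%. Of the 14 genes called at 6 h, 13 lay above 0 at 1 h and 12 did not overlap there. Over all members 34 lay above 0 at both times and 6 below 0 at both.

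Ndufc1 had the smallest p at 1 h, with 14.60 and 14.34 in polysomal RNA, against 13.33 and 13.05 in total RNA. The difference was 1.29 (SE 0.28, adjusted p = 0.0661), close to its value at 6 h. Ndufs4 had 13.50 and 13.41 in polysomal RNA, against 12.28 and 12.36 in total RNA, a difference of 1.14 (SE 0.31, adjusted p = 0.101). Ndufa6, a peripheral arm subunit that binds the mitochondrial acyl carrier protein, had 14.09 and 13.68 in polysomal RNA, against 12.45 and 12.60 in total RNA, a difference of 1.36 (SE 0.39, adjusted p = 0.11). In each of these 3 genes both polysomal samples were more than 1 log2 unit above both total samples. Atp5f1e had the highest difference, 1.76 (SE 0.77, adjusted p = 0.284), with 15.04 and 14.56 in polysomal RNA, against 14.51 and 11.58 in total RNA. Its value rests on total sample 2, which was nearly 3 log2 units below sample 1.

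Of the 9 genes below 0 at 1 h, Ndufs1 and both genes of complex II were the lowest. Sdha had 12.02 and 11.23 in polysomal RNA, against 13.16 and 13.02 in total RNA, a difference of -1.46 (SE 0.47, adjusted p = 0.15). Sdhaf2 had 10.23 and 10.56 in polysomal RNA, against 11.75 and 11.30 in total RNA, a difference of -1.13 (SE 0.61). Ndufs1 was at the floor on all 4 polysomal arrays at 1 h, against 10.08 and 9.87 in total RNA, so its level was at least 7.77-fold lower in polysomal RNA (adjusted p = 0.154). None of the 3 passed the test, and in each the samples did not overlap. Uqcrc2 had 12.81 and 12.15 in polysomal RNA, against 13.31 and 13.38 in total RNA, a difference of -0.87 (SE 0.46).

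The change of the fraction difference between 1 h and 6 h was tested directly and none of the 55 members passed, against 0% of all genes. The smallest p-values were those of Ndufc2 at 0.97 (SE 0.37), Ndufa8 at 0.80 (SE 0.35) and Ndufb3 at 0.96 (SE 0.42), each with an adjusted p of 0.849 and a larger difference at 6 h. At an unadjusted p under 0.05, 3 members had a larger and 1 a smaller difference at 6 h, against 2.23% and 3.33% of all genes.

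The next question was whether the polysomal level itself differed from that of control muscle. At 6 h none of the 55 members was called against the polysomal control, where 0.384% of all genes were called higher and 0% lower. None passed at an unadjusted p in that fit. Equal numbers paired these samples, with deviations correlating at 0.431 to 0.538, but this fit, its SEs and the overlap counts did not use the pairs. With a replicate block again no member was called. The member differences ran from -0.57 to 0.07 with a median of -0.11, against -0.04 over all genes, and 10 lay above 0. The median relative to all genes was -0.07, and its sign turned to 0.02 without polysomal sample 2 and to 0.03 without polysomal control sample 4, while it was -0.13 to -0.08 without any other sample. Polysomal control sample 4 stood apart, with a members' median 0.74 above that of all genes, against 0.09 to 0.19 in control samples 1 to 3. Without arrays 1A and 2A the relative median was -0.06 and again no member was called. No member had groups without overlap, against 2.69% of all genes higher and 2.25% lower. The smallest p-values were those of Ndufb10 at -0.46 (SE 0.25), Atp5pb of the peripheral stalk at -0.57 (SE 0.31) and Ndufa6 at -0.41 (SE 0.28), each with an adjusted p of 1. Ndufa8 had 13.97, 13.67, 13.92 and 13.48 in polysomal RNA at 6 h, against 13.84, 13.88, 13.85 and 14.06 in the polysomal control, and the groups overlapped.

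At 1 h the polysomal samples were compared with the control titled 1hr polysome, and again none of the 55 was called, against 0% of genes in each direction. The median difference was -0.23, against -0.02 over all genes. The relative median of -0.20 was 0.01 without polysomal sample 2, -0.08 without control sample 1 and -0.07 with quantile normalization, and -0.32 without control sample 2, so its size and sign rest on single samples. In 17 members both samples lay below both control samples, against 19.2% of all genes, and in 1 above, against 12.7%. Sdha at -1.06 (SE 0.47), Ndufc2 at -0.61 (SE 0.30) and Cox4i2 at -0.53 (SE 0.36) had the smallest p-values, each with an adjusted p of 1.

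Total RNA at 1 h was compared with the same control, whose fraction is not settled, so that a difference of time or contraction and one of fraction cannot be told apart. None of the 55 was called, against 0.0512% of genes higher and 0% lower. At an unadjusted p under 0.05, 20 members were lower and 1 was higher, against 5.89% and 5.23% of all genes. The median difference was -0.76, against 0.01 over all genes, and 49 members lay below 0. The relative median was -0.77, and -0.39 with quantile normalization. In 45 members both total samples lay below both control samples, against 24.5% of all genes, and in 4 above, against 25.8%. All 21 genes counted as accessory subunits of complex I, Ndufa4 among them, lay below 0.

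Ndufc1 had 13.33 and 13.05 in total RNA at 1 h, against 14.63 and 14.23 in the control titled 1hr polysome, a difference of -1.24 (SE 0.28, adjusted p = 0.128). Ndufb11 had 12.19 and 12.59 in total RNA, against 13.86 and 13.37 in that control, a difference of -1.23 (adjusted p = 0.136). Ndufs4 had 12.28 and 12.36 in total RNA, against 13.75 and 13.03 in the control, a difference of -1.08 (SE 0.31, adjusted p = 0.231). Sdha at 0.40 and Ndufs1 at 2.46 lay on the other side. This comparison shares its total samples with the 1 h fraction comparison and its control samples with the 1 h polysomal one.

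**Figure D5:**
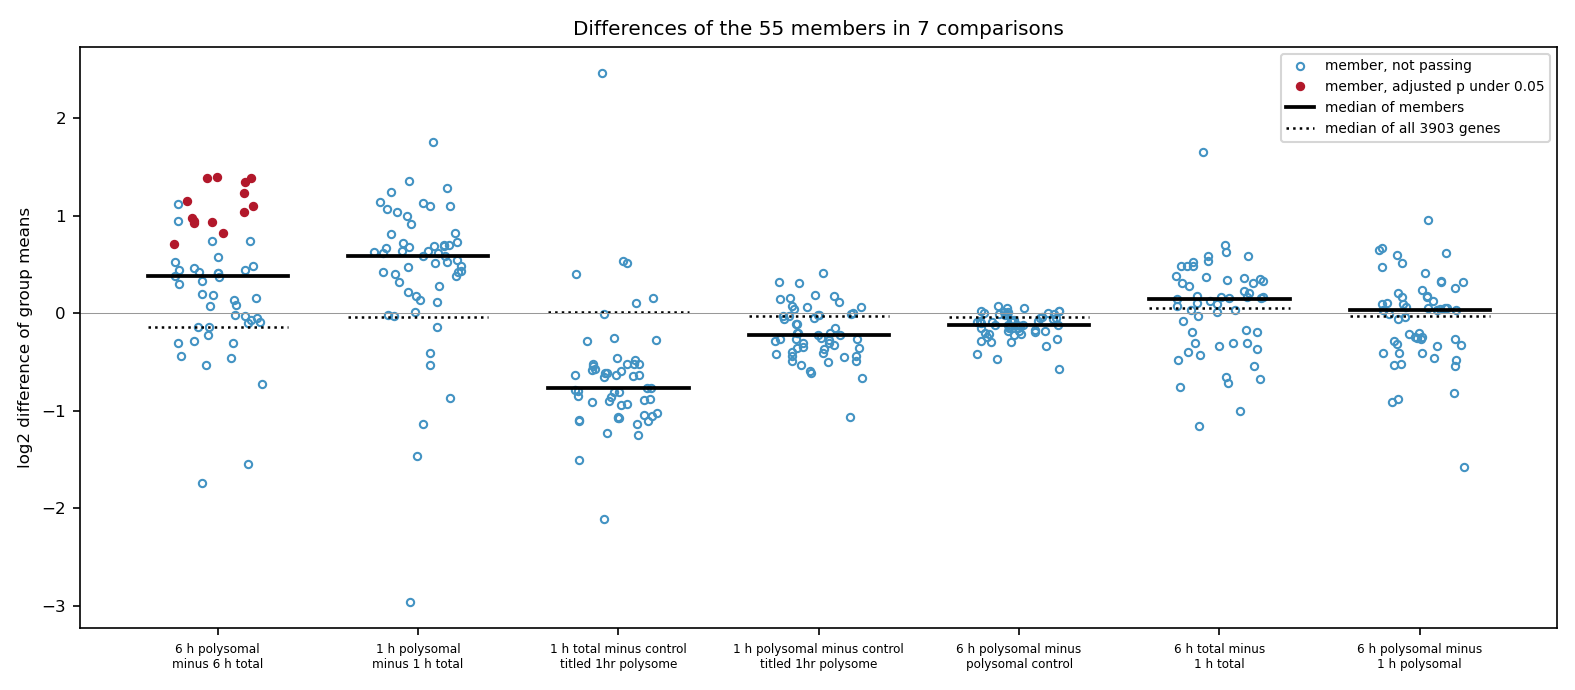
Log2 differences of the 55 genes in 7 comparisons, with 1 point a gene, filled where the adjusted p was under 0.05, a thick line for the median of the genes and a dotted line for the median of all 3903 genes. The medians are 0.39 and 0.59 in the fraction comparisons at 6 h and 1 h, -0.76 for total RNA at 1 h against its control, and between -0.23 and 0.15 in the other 4.

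Time within a fraction gave no call among the 55. Total RNA at 6 h against 1 h had a median difference of 0.15, against 0.06 over all genes, where 0% of genes were called higher and 0.0256% lower. The relative median of 0.09 turned to -0.09 without total sample 2 at 1 h and to -0.07 without total sample 4 at 6 h, was 0.01 without total sample 3, and ran from -0.20 to 0.36 under the other alternatives. The smallest p-values were those of Ndufb3 at -0.75 (SE 0.30), Atp5f1e at 1.66 (SE 0.67), both with an adjusted p of 0.597, and Ndufb11 at 0.59 (SE 0.25). In 2 members all total samples at 6 h lay above those at 1 h, against 8.1% of all genes, and in 2 below, against 5.66%. Polysomal RNA at 6 h against 1 h had a median of 0.03, against -0.02 over all genes, with 0% called in each direction. The relative median ran from -0.21 without polysomal sample 2 at 1 h to 0.08 without sample 1. Ndufb11 at 0.65 (SE 0.25) and Ndufc2 at 0.67 (SE 0.26) came closest, with adjusted p of 0.755 and 0.772. Samples did not overlap in 3 members that were higher at 6 h, against 4.51% of all genes, and in none that was lower, against 9.1%. The polysomal control against the control titled 1hr polysome also gave none, with 0% of genes called, and Atp5if1 at 0.72 (SE 0.28, adjusted p = 0.89) and Cox4i1 at -1.25 (SE 0.67) had the smallest p-values. There 7 members had polysomal control samples all above the others, against 7.58% of all genes, and 2 all below, against 11%.

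Genes with several probe sets were not always measured alike. Of 27 such members 13 had 1 sign in all their probe sets in the 6 h fraction comparison and 14 did not. Of the 95 tested probe sets 20 were called higher and none lower, against 3.77% higher and 4.99% lower of all 6707. Both probe sets of Ndufc1 were called, at 1.24 and 1.57, and both of Ndufb6, at 1.15 and 1.14. Atp5if1 had 1.39 and 1.59, both called, and a dimmer probe set at -0.31. Ndufs4 had 1.04, 1.19 and -0.19, Ndufb11 0.98 and -0.08, and Cox6a1 1.11, 0.25 and 1.41. The 3 probe sets of Ndufaf3 ran from -0.37 to 0.71, with 2 above 0 and 1 called. The 3 probe sets of Cox4i1 read -0.46, -2.17 and 1.64, and the last of them was called (adjusted p = 0.0115). The 2 of Cox6b1 read -0.22 and 0.93, and the dimmer one was called (adjusted p = 0.0195). For genes whose probe sets differ in sign the direction therefore depended on the probe set. Both probe sets of Cox6a2, at -1.54 and -2.66, lay on 1 side, but neither was called. Both had low readings on some polysomal arrays, and the brighter one lay at -0.39 without arrays 1A and 2A.

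Bright genes were set apart by signal as a further description. Above a signal of 10000 there were 36 members with 7 called and a median difference of 0.32, against -0.03 for 107 other genes, of which 9 were called higher and 2 lower. At or below it there were 19 members with 7 called and a median of 0.58, against -0.15 for 3741 other genes, of which 147 were called higher and 194 lower.

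Other genes of mitochondria were read from lists of the same samples for the 6 h fraction comparison, where 4.36% of all genes were called higher and 5.02% lower. Of 9 citrate cycle genes none was higher and 1 was lower, with a median of -0.09. The lower one was Dlat, the acetyltransferase of pyruvate dehydrogenase, at -0.93 (SE 0.23, adjusted p = 0.0226). Of 7 regulators of mitochondrial biogenesis 1 was higher, Ssbp1, which binds single-stranded mitochondrial DNA, at 0.94 (SE 0.23, adjusted p = 0.0205). Of 15 carriers, import and inner membrane genes the import channel subunit Timm17a was higher at 1.13 (SE 0.22, adjusted p = 0.00738). The uncoupling protein Ucp2 was lower at -1.39 (SE 0.30, adjusted p = 0.0141). None of 5 further assembly factors and electron carriers passed. Cytosolic ribosomal protein genes had 7 higher and none lower of 43, with a median of 0.17.

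Markers of fibre type and of other cells were read in the same groups. Over all genes 4.36% were called higher in polysomal RNA at 6 h and 5.02% lower. Myh4 and Myh7, the heavy chains of fast and slow fibres, were above the floor on all 36 arrays. The summed signal of 6 slow fibre genes was 42801 to 58029 in polysomal RNA at 6 h, against 45990 to 96658 in total RNA, and 27561 to 49150 in polysomal RNA at 1 h, against 53840 to 67187 in total RNA. Myh7 was lower in polysomal RNA at 6 h at -1.47 (adjusted p = 0.00646), and it was the 1 call of that list. The 12 fast fibre genes summed to 80245 to 245392 in polysomal RNA at 6 h, against 134332 to 328027 in total RNA, with none called. The 8 macrophage markers summed to 7175 to 18599 in polysomal RNA at 6 h, against 5167 to 8780 in total RNA, with none called. The 3 adipocyte markers summed to 5716 to 10407 in polysomal RNA at 6 h, against 6123 to 6655 in total RNA, and the fatty acid binding protein Fabp4 was higher at 1.39 (adjusted p = 0.0378). The 4 red cell markers summed to 23187 to 64954 in polysomal RNA at 6 h, against 38460 to 62301 in total RNA, and Slc4a1, the anion exchanger of red cells, was lower at -0.77 (adjusted p = 0.0083). Of 5 cardiac, 2 brown adipocyte, 3 endothelial, 4 smooth muscle and 3 nerve or Schwann cell markers none was called. Of all these markers 1, Itgam of macrophages, was at the floor on every total array at 6 h, and none on every polysomal array at 6 h. Their part in the respiratory chain differences was not tested, and neither was that of the actin and GAPDH ratios.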

How the data were processed

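The authors deposited 1 table of intensity signals on a linear scale for 36 arrays with 1 colour. The software that made them is not given in the sources used here. Their 2% trimmed means ran from 801 to 801.9, so the scaling was kept. It fixes levels only relative to the array. Of 8799 probe sets 59 controls were left out. Signals under the 40th percentile, 129.5, were set to it, log2 was taken, and tests used the 6707 probe sets above it on at least 4 arrays. Each sample number has 2 arrays, which correlated at 0.897 to 0.981 and were averaged, giving 18 replicates. The number of arrays limits the precision.

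One model over 6 groups was fitted with limma 3.58.1 in R 4.3.3, with 12 residual degrees of freedom, two-sided, with Benjamini-Hochberg adjustment over all probe sets and a threshold of 0.05. It was tested on simulated data with known changes. Symbols came from the platform annotation, updated with the RefSeq table of GRCr8: 7006 probe sets had 1 symbol, 308 several and 1426 none. Those with several were left out, and 6 of them name a member. Alternatives changed scaling, filter, floor, probe set rule, replicate block, arrays as units, control and samples used.

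The genes and lists were chosen with earlier results of these data known. Named genes are all called members, the 2 highest and lowest of each complex at 6 h, the 3 smallest p where fewer than 3 were called, isoforms, and genes whose probe sets differ in sign. Numbers 1 to 4 paired the polysomal 6 h and polysomal control samples, since all 4 equal-numbered pairs had deviations correlating at 0.431 to 0.538 over probe sets, and a replicate block there called 0 members, as did the fit without it. A gene at the floor on all arrays of a group has only a bound. A named difference counted as reversed where the signs of both fits were opposite and 1 of 2 conditions held. Either it was called in at least 1 of the fits, or it was at least its SE in both. Sex, strain and animal were not used.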

Additional observations from a re-analysis of the deposited data

Results flagged for a closer look

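Within groups of 4 samples, 105 groups of named genes were searched for a sample far from the rest, and 11 were found. For a single group chance gives about 1 in 20. The genes share the same samples, so the count of 11 cannot be judged against that rate. In 6 of them sample 4 of the polysomal control was the high one: Atp5f1e had a signal of 48500 there, Cox8b 43500, Ndufab1 36300, Ndufb8 52200, Ndufc1 30600 and Uqcrfs1 51200. In 3 of them it was sample 3 of total RNA at 6 h, with the low signals 1870 for Atp5pd and 624 for Cox6c and the high signal 11100 for Ndufb11. Ndufs1 was above the floor of 129.5 in 1 sample each, at 156 in polysomal sample 1 at 6 h and 150 in polysomal control sample 2. The other samples of those groups were at the floor, so any value above it would have been flagged.

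Sample 3 of total RNA at 6 h also had the high 3′ to 5′ ratio of actin, and the part of that ratio in its 3 values was not tested. Without it the 6 h fraction difference of Cox6c was 0.98 (adjusted p = 0.0311), still called, and that of Atp5pd 0.47 (adjusted p = 0.0797), not called.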

How the results depend on the processing

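In the 6 h fraction comparison the count of members called was 7 to 16 when 1 sample was left out, the lowest without polysomal sample 3, against 14 with all samples. It was 10 without a filter on dim probe sets, 14 to 18 with other scalings, floor or filter, probe set means, arrays as units or a replicate block (16), 20 with samples 1 and 2 alone and 1 with samples 3 and 4 alone. The split into sets and the omission of arrays were added after the values were seen. All genes called numbered from 42 with samples 3 and 4 alone to 631 without total sample 4, against 366. The median of members over that of all genes was 0.40 to 0.62 with 1 sample left out and 0.35 to 0.68 otherwise. Quantile normalization moved the median of all genes to -0.02 and 75th percentile scaling to -0.04, from -0.14. At 1 h the count of calls was 1 with quantile normalization, 1 with the mean of all probe sets and 1 with the replicate block, each time Ndufc1 (adjusted p = 0.045, 0.0448 and 0.0286), and 5 with single arrays and number as a random block, 3 higher and 2 lower, against 0. With samples 3 and 4 of the 6 h set alone, 2 members passed in the difference between times and 4 in total RNA at 6 h against 1 h, 2 higher and 2 lower, against 0 in both. In total RNA at 1 h against the control titled 1hr polysome the replicate block called 1 member lower, Ndufc1 (adjusted p = 0.047), against 0. Outside the 6 h fraction comparison, leaving out 1 sample called 0 members in each comparison. These fits have few samples, and leaving out 1 sample of a pair assumes that the lone one varies like the other groups. The causes were not tested. Outside polysomal RNA at 6 h and its control, equal numbers were not taken as pairs. Between fractions at 6 h deviations correlated at 0.0726 to 0.248, and 3 of 4 correlated best with their own number, so pairing there is not excluded. With 2 samples a group the check cannot decide, since the 2 deviations of a group sum to 0. Over the named genes 993 alternative values stayed on their side of the threshold, 48 were no longer called and 16 became called. Of the 993, 55 over 15 differences that had not passed had the opposite sign, and no called value changed sign. Signals near the floor limit Ndufs1 and the Cox6c pseudogene.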
